A study of Mus musculus with 10 samples.

Results

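The abundant genes higher with IL-22 were 39 of the 230 genes listed for IL-22-treated MIN6N8 cells. They were chosen by their values: a mean of at least 100 CPM (the count of a gene scaled to a common library total) over the 5 PBS libraries, and a higher mean over the 5 IL-22 libraries. Of the 64 listed genes that reached this level, 46 had the higher mean with IL-22 and 18 the lower mean. The rule also left out 16 genes by name, of which 7 were among the 46 (Stat3, Rgs4, Pcsk1n, Pdx1, Aes, Rapgef4 and Igfbp4). Because the contrast itself chose the genes, their direction is a product of the choice. Fold changes are therefore given as a description, and nothing is supported by them. Counts past a threshold given below come from tests of this same contrast, and they support nothing either.

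MIN6N8 is an established mouse insulinoma line of beta-cell origin that makes insulin, so it stands for a transformed, cycling beta cell and not for an islet. All cells were maintained in DMEM with high glucose and serum, changed to DMEM with 5.5 mM glucose, and given either PBS, the vehicle, or IL-22 at 100 ng/mL for 4 h. Each group has 5 libraries, and no label says that they came from separate cultures, so the spread between libraries may be technical. The dose and group size follow the sample labels, from which the paper's text differs: it gives a lower dose and another number of samples. Of 15 beta-cell markers looked for, 6 are among the listed genes, with Iapp, the amylin precursor, at 8928 ± 222 CPM in PBS. Genes are listed for their difference between groups, so the number of markers listed cannot check the cell type. None of the alpha-cell, delta-cell, PP-cell, acinar, duct, fibroblast, endothelial and macrophage markers looked for is a listed gene, so their levels were not analysed here. As the RNA is bulk RNA, a different mix of cells and a different amount of RNA per cell cannot be told apart.

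IL-22 is a cytokine of the IL-10 family that acts on epithelial and islet cells through a receptor made of IL-22RA1 and IL-10RB. The receptor works through the kinases JAK1 and TYK2, which phosphorylate STAT3, and STAT3 then enters the nucleus and raises genes such as Socs3 that feed back on the pathway. Beta cells are neuroendocrine cells: beside the machinery of every cell (actin, the proteasome, respiratory chain subunits), they carry dense-core granules and many genes shared with neurons. Both kinds of gene are found among the 39.

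Library totals lay between 23685886 and 35785875 counted reads, and each of the 39 genes was counted at 2412 to 40844 reads in a library. Counting error alone was then 0.53% (Actb) to 1.82% (Slc37a1) of the level. The listed genes took 2.87% to 3.11% of the counted reads of a library. The table holds only genes that passed the authors' own test, so any scaling computed over it depends on that choice. CPM and fold changes below are relative to the library total unless a sentence says otherwise. With TMM factors computed over the listed genes (a scaling that sets most listed genes to no change) the median of all 230 genes moved by -0.20 on the log2 scale, with DESeq2's own size factors by -0.19, and most of the 39 then had a negative fold change.

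The 39 genes together took 7532, 7756, 7896, 7777 and 8094 CPM in PBS libraries 1 to 5. In IL-22 libraries 1 to 5 they took 8444, 8749, 8595, 8790.2 and 8701 CPM. The lowest IL-22 library was thus above the highest PBS library in summed level, and the mean sum was 8656 ± 139 (SD, n = 5) against 7811 ± 206, or 10.8% higher. Actb, the gene of cytoplasmic beta-actin, supplied 15.2% of the sum in PBS.

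Single differences were small. In the edgeR fit the log2 fold change (IL-22 against PBS) was 0.10 (Actb) to 0.28 (Vgf), with a median of 0.15. The median over all 230 listed genes was 0.21, and 7 of the 39 lay above it, namely Vgf, Lmna, Tmtc1, Cox8a, Cox6a1, Cdh4 and Dos. For 20 genes the fold change was under 0.15, and for 10 it was at least 0.2. With edgeR's quasi-likelihood test on all 230 genes and Benjamini-Hochberg adjustment, 38 of the 39 were past the threshold of 0.01 in the higher direction, beside 81.3% of all listed genes, and Dlk1 was not. Every IL-22 library lay above every PBS library in 20 of the 39, beside 46.5% of all listed genes. Since the same contrast chose the members, nothing is read from either count. Without IL-22 library 2 the first count was 25 of the 39, beside 59.6% of all listed genes. Within the 39 the fold change was the smaller the higher the PBS level, with a Pearson's r across genes of -0.39, and over all listed genes r was -0.76 (the genes share the same 10 libraries, and being listed depended on the difference).

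**Figure D1:**
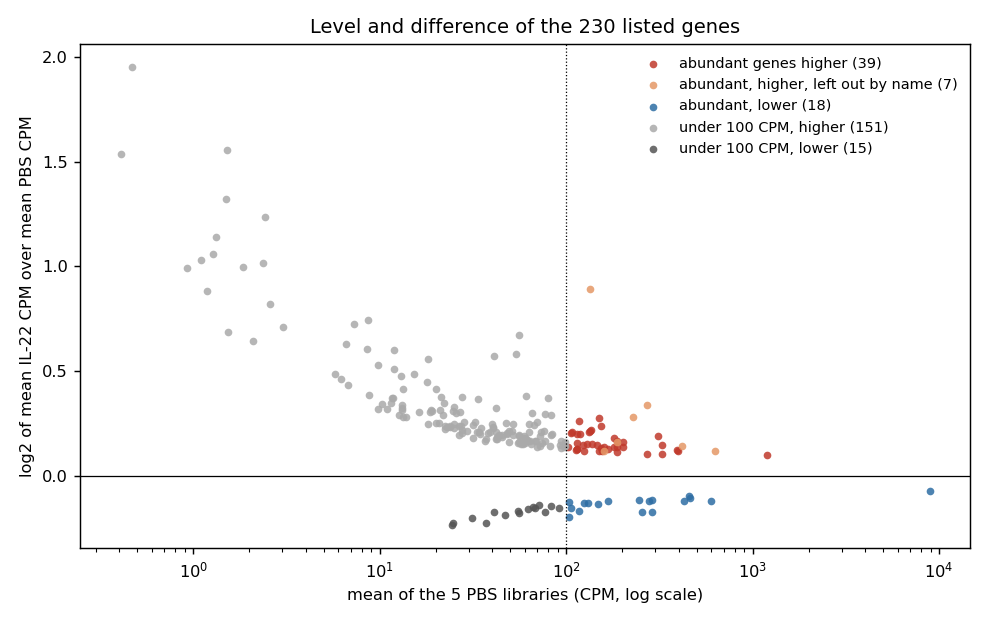
Mean level in the 5 PBS libraries (x axis, CPM, log scale) against the log2 ratio of mean IL-22 over mean PBS CPM (y axis, by library totals) for the 230 listed genes, with the minimum of 100 CPM dotted. The 39 abundant genes higher with IL-22 (red) lie in a narrow band just above 0, while many genes under the minimum reach larger ratios. With TMM factors over the listed genes, 31 of the 39 would have a negative fold change.

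The minimum of 100 CPM cuts through genes of similar values. Slc37a1, Med25 and Dos, the lowest inside, had PBS means of 103 ± 3.72, 107 ± 8.58 and 107 ± 8.11 CPM and IL-22 means of 113 ± 3.29, 123 ± 5.4 and 124 ± 5.08 CPM. Dda1, Kcnh1 and Ncln, the nearest outside, had PBS means of 97.7 ± 4.47, 98.3 ± 3.2 and 98.4 ± 3.24 CPM and IL-22 means of 108 ± 1.65, 110.0 ± 2.65 and 109 ± 4.33 CPM. The 3 outside and the 3 inside differed from PBS by similar percentages, 10.1% to 11.9% against 10.2% to 15.7%.

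Levels of different genes can be compared only per length. Divided by the length of the longest annotated transcript, the PBS level was highest for Actb at 618 CPM per kb, followed by Cox8a at 247, Cst3 at 218, Cox6a1 at 215 and Fth1 at 191 CPM per kb. The lowest per length were Nfasc at 11.7 and Tmtc1 at 18.3 CPM per kb. Short transcripts of respiration and secretion thus stood near the top per length although their CPM was under that of Sez6l or Ywhah.

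The start regions of the genes were read for motifs of the factors that IL-22 and secretagogue signaling use, since the members share a direction here, by the way they were chosen. RefSeq windows of 300 bases, from 250 before to 50 after a transcript start on GRCm38.p6, were at hand for 30 of the 39 genes. Among those with no entry were Vgf, Cdh4, Atn1, Rundc3a, Psmd3, Wars, Nptx2 and Actb. The STAT motif TTCNNNGAA, in which N is any base and either strand counts, was found in 3 of the 30 genes (10.0%) and in 9.55% of 27025 genes with a window. Its stricter form TTCCNGGAA was in 1 of the 30 (3.33%, against 1.35%). The AP-1 motif TGANTCA was in 3 genes (10.0%, against 8.97%) and the cAMP response element TGACGTCA in 3 (10.0%, against 2.03%). The GC box GGGCGG was in 23 of the 30 (76.7%, against 38.2%), in windows whose median GC content was 62.3% against 52.7% over all windows. A match is a run of letters, not a shown site, and these shares are a description.

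The window of Chpf is shown because it holds the cAMP response element at 2 places, 86 and 41 bases before the start, and that of Pde1c because it holds the strict STAT motif and an AP-1 motif. Capitals mark the matches, and both windows are given 5′ to 3′ on the minus strand, at chr1:75479422-75479721 for Chpf and chr6:56369585-56369884 for Pde1c (RefSeq, GRCm38.p6).
Chpf: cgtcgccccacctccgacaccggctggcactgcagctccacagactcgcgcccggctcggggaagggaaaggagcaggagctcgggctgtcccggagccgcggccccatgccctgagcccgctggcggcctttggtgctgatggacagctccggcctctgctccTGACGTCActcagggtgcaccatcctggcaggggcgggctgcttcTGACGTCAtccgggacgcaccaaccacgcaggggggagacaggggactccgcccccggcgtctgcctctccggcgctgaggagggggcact
Pde1c: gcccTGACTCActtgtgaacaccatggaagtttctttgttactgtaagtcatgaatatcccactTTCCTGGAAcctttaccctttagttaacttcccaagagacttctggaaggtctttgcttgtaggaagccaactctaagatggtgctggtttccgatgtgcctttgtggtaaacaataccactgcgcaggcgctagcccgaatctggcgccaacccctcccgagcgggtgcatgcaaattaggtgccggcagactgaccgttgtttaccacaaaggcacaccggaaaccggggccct
The other matches are given as short stretches, again with the match in capitals. Scaf1 and Ppp2r5b carry the looser STAT form, Lmna and Dos the AP-1 form, and Syn1 and Ywhah the cAMP response element.
Scaf1: gacgcattgatTTCTGGGAAacggagtcgc
Ppp2r5b: atcctcagcttTTCTCGGAAgtactgagtt
Lmna: ctggctgtcagTGACTCAgtgt
Dos: ccacctgtccaTGAGTCAccccagtgac
Syn1: caaaggctgacTGACGTCActcactagcc
Ywhah: tttatagtaggTGACGTCAccttaaaaag

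For the description the 39 genes were put into 8 groups by known role, after the table had been seen. Values are CPM by library total, means are ± SD over 5 libraries, and gene positions are those of the annotation on GRCm38 (mm10).

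Genes of the secretory granule, synaptic-type vesicle and exocytosis numbered 5, with log2 fold changes of 0.14 to 0.28 by library totals. Of these, Vgf and Dos stayed positive under TMM factors, at 0.07 (SE 0.039) and 0.01 (SE 0.035). Under DESeq2's own factors they were at 0.08 (SE 0.040) and 0.02 (SE 0.035), so the value of Dos was under its SE in both. Vgf encodes the precursor of granule peptides and is made by neurons and endocrine cells (chr5:137026392-137033351, plus strand). It was counted at 132, 150.0, 158, 144 and 168 CPM in PBS libraries 1 to 5 and at 184, 184, 186, 178 and 179 CPM in IL-22 libraries 1 to 5. All IL-22 libraries of Vgf were above all PBS libraries, and they were closer together: the mean was 182 ± 3.5 against 150.3 ± 13.8 CPM, a log2 fold change of 0.28 (SE 0.051). Rundc3a, a RUN-domain protein of neurons and endocrine cells (chr11:102393403-102402555, plus strand), had the highest PBS mean of the group. Its PBS libraries read 166, 171, 192, 192 and 183 CPM and its IL-22 libraries 187, 207, 193, 208 and 202 CPM. IL-22 library 1 lay among the PBS libraries, so the groups overlapped (log2 fold change 0.14, SE 0.046). Syn1, which encodes the vesicle phosphoprotein synapsin I, had 138 ± 8.21 CPM in PBS and 154 ± 7.2 CPM with IL-22. Clta, the clathrin light chain of coated vesicles, went from 122 ± 2.88 to 136 ± 5.01 CPM without overlap. Dos, now named Cbarp, encodes a protein that binds calcium channel beta subunits and dampens calcium entry, and had 107 ± 8.11 CPM in PBS and 124 ± 5.08 CPM with IL-22.

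Cell-surface and secreted proteins made a group of 6, with log2 fold changes of 0.13 to 0.21 by library totals. In 4 of them every IL-22 library lay above every PBS library, beside 46.5% of all listed genes, and nothing is read from this count. Under TMM factors Cdh4 alone of the 6 kept a positive sign, at 0.002 (SE 0.044). Cdh4 encodes R-cadherin, a calcium-dependent adhesion protein (chr2:179442431-179899373, plus strand). Its PBS libraries read 139.9, 132, 129, 129.7 and 134 CPM and its IL-22 libraries 149, 153, 156, 153 and 158 CPM, so the groups were apart and PBS 1 was the highest of its group (log2 fold change 0.21, SE 0.034). Sez6l, a brain-enriched membrane protein of the seizure 6 family (chr5:112419151-112577185, minus strand), was the most abundant of the group. It was counted at 304, 357, 333, 322 and 319.5 CPM in PBS and at 343, 357, 348, 408 and 359 CPM with IL-22. IL-22 library 4 stood far above the other libraries of Sez6l, and PBS 2 lay among the IL-22 libraries (log2 fold change 0.15, SE 0.048). Nfasc, the axonal adhesion protein neurofascin, had 114 ± 6.54 and 131 ± 5.42 CPM. Cst3, the secreted cysteine protease inhibitor cystatin C, had 188 ± 11.5 and 207 ± 2.59 CPM, and Nptx2, a secreted neuronal pentraxin, 113 ± 2.8 and 123 ± 4.14 CPM. These 3 genes had no overlap between groups. Dlk1, an imprinted transmembrane protein resembling Notch ligands (chr12:109452823-109463336, plus strand), was the member with the widest PBS spread relative to its level: its PBS libraries ran from 168 to 218 CPM and its IL-22 libraries from 195 to 221 CPM, with means of 187 ± 20.1 and 210.0 ± 10.9 CPM and a log2 fold change of 0.17 (SE 0.06).

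Enzymes that modify proteins and glycans in the endoplasmic reticulum (ER) and Golgi made a group of 4, at log2 fold changes of 0.12 to 0.24 by library totals. Of these, Tmtc1 stayed positive under TMM factors, at 0.03 (SE 0.047). Tmtc1 encodes an ER membrane O-mannosyltransferase of cadherins (chr6:148232430-148444389, minus strand). It read 155, 147, 145, 158 and 160.1 CPM in PBS and 182, 172, 192, 168 and 189 CPM with IL-22. The lowest IL-22 library was above the highest PBS library, and the fold change was 0.24 on the log2 scale (SE 0.043). Fam20c, the Golgi kinase that phosphorylates secreted proteins (chr5:138754514-138810077, plus strand), had the highest PBS mean here. Its libraries read 159, 147, 162, 155 and 169.6 CPM in PBS and 177, 178, 169.9, 169 and 181 CPM with IL-22. PBS 5 lay just above the lowest IL-22 library, so the groups of Fam20c overlapped (log2 fold change 0.14, SE 0.039). Chpf, a chondroitin chain polymerising factor and the gene of the window with the paired cAMP response elements, went from 119 ± 9.47 to 136 ± 2.42 CPM, with an SD in PBS several times that with IL-22. Pigt, a subunit of the transamidase that attaches GPI anchors, went from 125 ± 4.99 to 136 ± 3.47 CPM.

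Genes of respiration, iron and metabolism numbered 6, with log2 fold changes of 0.12 to 0.22 by library totals. In 5 of them every IL-22 library lay above every PBS library, beside 46.5% of all listed genes, and nothing is read from this count. Under TMM factors the sign stayed positive for Cox8a and Cox6a1, at 0.02 (SE 0.052) and 0.01 (SE 0.032), each under its SE. Both are nuclear-encoded subunits of cytochrome c oxidase, the last complex of the respiratory chain. Cox8a (chr19:7215153-7217616, minus strand) read 135, 126, 129, 128 and 160.1 CPM in PBS and 165, 152, 171, 156 and 148 CPM with IL-22. PBS 5 stood apart from the other PBS libraries of Cox8a and lay above 3 IL-22 libraries (log2 fold change 0.22, SE 0.06). Cox6a1 (chr5:115345642-115348981, minus strand) read 125, 128, 139, 129.6 and 146 CPM in PBS and 153, 154, 157, 159.5 and 150.0 CPM with IL-22, apart but again with PBS 5 highest in its group (log2 fold change 0.21, SE 0.042). Fth1 encodes the ferritin heavy chain, which stores iron and oxidises it (chr19:9980598-9985098, plus strand). It was counted at 379, 394, 413, 388 and 394 CPM in PBS and 419.9, 416, 431, 430.0 and 447 CPM with IL-22. All IL-22 libraries of Fth1 were above all PBS libraries, by a small margin at PBS 3 (log2 fold change 0.12, SE 0.03). Gde1, a glycerophosphodiester phosphodiesterase, had 114 ± 4.2 and 128 ± 3.29 CPM, and Slc37a1, a sugar phosphate exchanger of the ER, 103 ± 3.72 and 113 ± 3.29 CPM. Wars, the cytosolic tryptophanyl-tRNA synthetase, had 114 ± 3.39 and 124 ± 1.79 CPM. These 3 genes had no overlap between groups.

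Transcription and RNA-binding factors made the group of most members, 7, with log2 fold changes of 0.10 to 0.20 by library totals, of which Med25 kept a positive sign under TMM factors, close to 0. The group had the most GC-rich transcripts (median GC content 62.0%). Pcbp1, a poly(rC)-binding protein that is also an iron chaperone (chr6:86524492-86526321, minus strand), was the most abundant. It read 295, 319.6, 307, 298 and 323 CPM in PBS and 348, 349, 351, 344 and 372 CPM with IL-22. Its groups were apart, with IL-22 5 well above the other libraries (log2 fold change 0.19, SE 0.034). Maz, a zinc finger factor of GC-rich promoters (chr7:127022130-127027037, minus strand), read 269, 266, 269.8, 274 and 284 CPM in PBS and 295, 304, 289, 294 and 283 CPM with IL-22. PBS 5 lay above IL-22 5, and the fold change of 0.10 (SE 0.03) was near the lowest of the 39. Among the repressors and corepressors, Cic (capicua) had 180.5 ± 13.0 and 205 ± 9.78 CPM and Atn1 (atrophin 1) 147 ± 7.28 and 163 ± 11.5 CPM. The groups of each overlapped. Med25, a subunit of the Mediator complex, had 107 ± 8.58 and 123 ± 5.4 CPM with overlap. Scaf1, an SR-related protein that binds the tail of RNA polymerase II, had 129 ± 7.15 and 144 ± 2.56 CPM without overlap.

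Cytoskeleton and nuclear lamina gave 4 genes at log2 fold changes of 0.10 to 0.26 by library totals. Lmna alone stayed positive under TMM factors, at 0.06 (SE 0.036). Lmna encodes lamins A and C of the nuclear envelope (chr3:88480147-88509956, minus strand). Its libraries read 111, 111, 118, 113 and 133 CPM in PBS and 141, 145, 133, 146 and 138 CPM with IL-22. PBS 5 lay above IL-22 3 by a fraction of a CPM, and the other 4 PBS libraries were below every IL-22 library (log2 fold change 0.26, SE 0.049). Actb (chr5:142903115-142906754, minus strand), a usual reference gene, was the most abundant of the 39. It read 1141, 1203, 1191, 1197 and 1195 CPM in PBS and 1212, 1325, 1258, 1304 and 1266 CPM with IL-22. PBS 1 stood below the other 4 PBS libraries of Actb, which lay between 1191 and 1203 CPM, and the lowest IL-22 library was just above them (log2 fold change 0.10, SE 0.028). Under TMM factors the sign of Actb was negative, at -0.10, and under DESeq2's own factors at -0.09. Ivns1abp, a kelch protein that binds actin (chr1:151344477-151364422, plus strand), read 391, 422, 399, 386 and 382 CPM in PBS and 423, 443, 431, 439 and 419 CPM with IL-22. PBS 2 lay above IL-22 5 (log2 fold change 0.12, SE 0.031). Pfn1, profilin 1, which feeds actin monomers to growing filaments, had 156 ± 5.0 and 170.0 ± 3.42 CPM without overlap.

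Signal transduction gave 4 genes with log2 fold changes of 0.11 to 0.13 by library totals, and none kept a positive sign under TMM factors. Ywhah, the 14-3-3 protein eta, which binds phosphorylated proteins (chr5:33018816-33027966, plus strand), read 323, 351, 332, 315 and 320.1 CPM in PBS and 345, 356, 353, 358 and 355 CPM with IL-22. PBS 2 lay among the IL-22 libraries, which varied little (log2 fold change 0.11, SE 0.031). Pde1c, the calcium- and calmodulin-dependent phosphodiesterase that lowers cyclic nucleotides in beta cells (chr6:56069804-56569103, minus strand), is the gene whose window holds the strict STAT motif. Its libraries read 197, 195, 179, 182 and 183 CPM in PBS and 205, 208, 202, 193 and 207 CPM with IL-22. PBS 1 and PBS 2 were above IL-22 4, so the groups of Pde1c overlapped (log2 fold change 0.12, SE 0.036). Pim2, a serine/threonine kinase of cytokine signaling, had 154 ± 1.5 and 168 ± 4.42 CPM without overlap. Its PBS libraries varied by 0.98%, less than the 1.48% that counting error gives, which held for no other of the 39. Ppp2r5b, a regulatory subunit of protein phosphatase 2A, had 114 ± 3.62 and 125 ± 2.69 CPM without overlap.

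Ubiquitin and proteasome genes numbered 3, at log2 fold changes of 0.12 to 0.14 by library totals, and none kept a positive sign under TMM factors. Fbxl16, an F-box and leucine-rich repeat protein (chr17:25809085-25821255, plus strand), read 188, 187, 204, 207 and 219 CPM in PBS and 214, 224, 222, 226 and 221 CPM with IL-22. Only PBS 5 of its group lay within the range of the IL-22 libraries (log2 fold change 0.14, SE 0.042). Psmd3, a lid subunit of the 26S proteasome, had 167 ± 7.41 and 183 ± 5.1 CPM with overlap. Ube2c, the ubiquitin-conjugating enzyme of the anaphase-promoting complex, had 149.7 ± 2.54 and 163 ± 5.52 CPM without overlap.

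**Figure D2:**
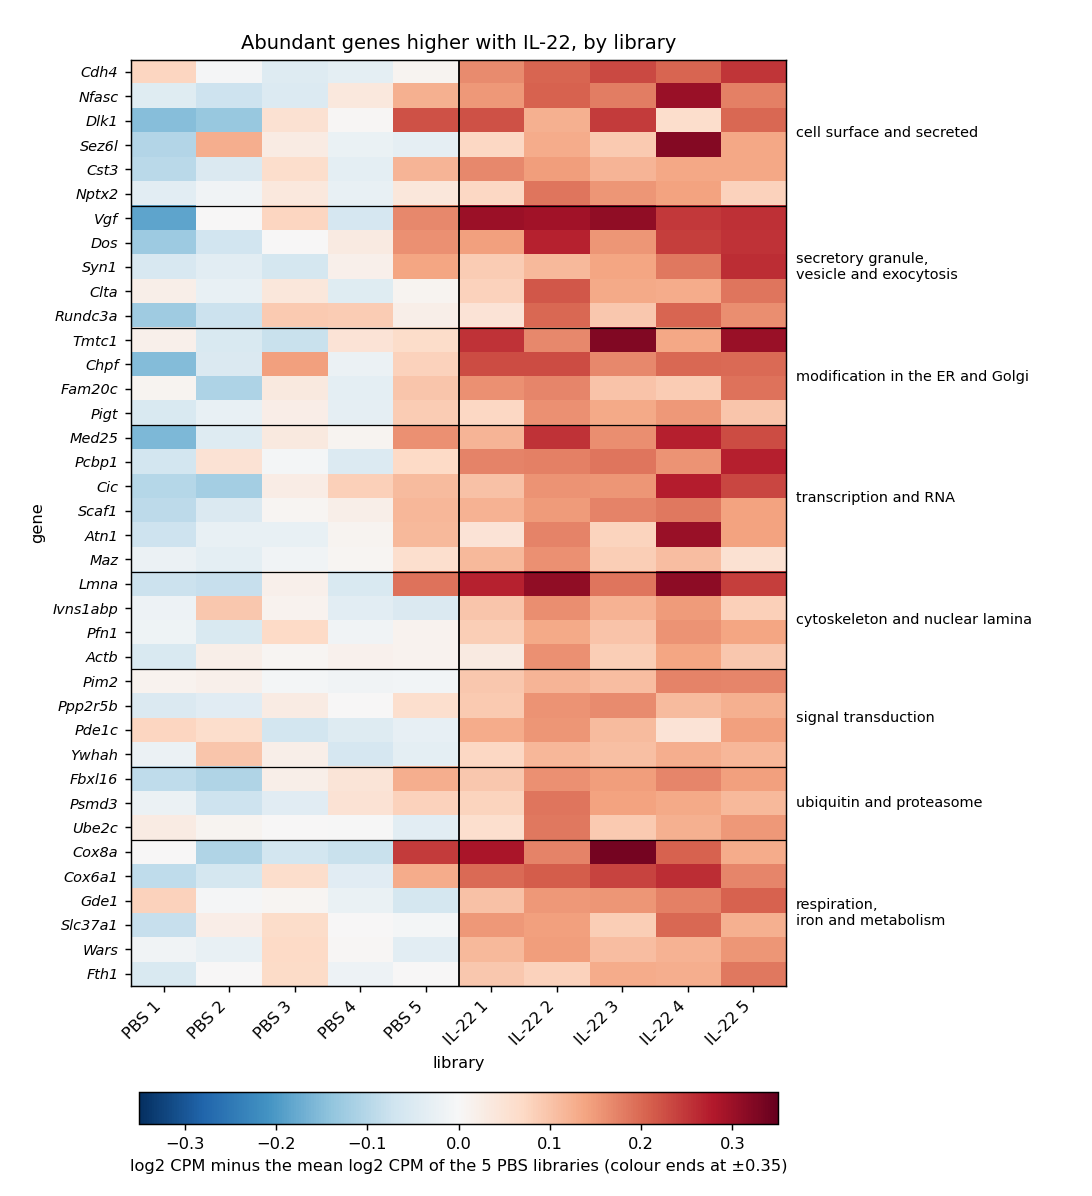
Log2 CPM of 38 of the 39 genes (rows, by functional group) in the 10 libraries (columns) as a difference from the mean log2 CPM of the 5 PBS libraries, by library totals. IL-22 libraries are above 0 throughout, and over all 39 genes PBS 1 is lowest of its group for 19 and PBS 5 highest for 23. Under TMM factors over the listed genes 31 of the 39 fold changes become negative.

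**Figure D3:**
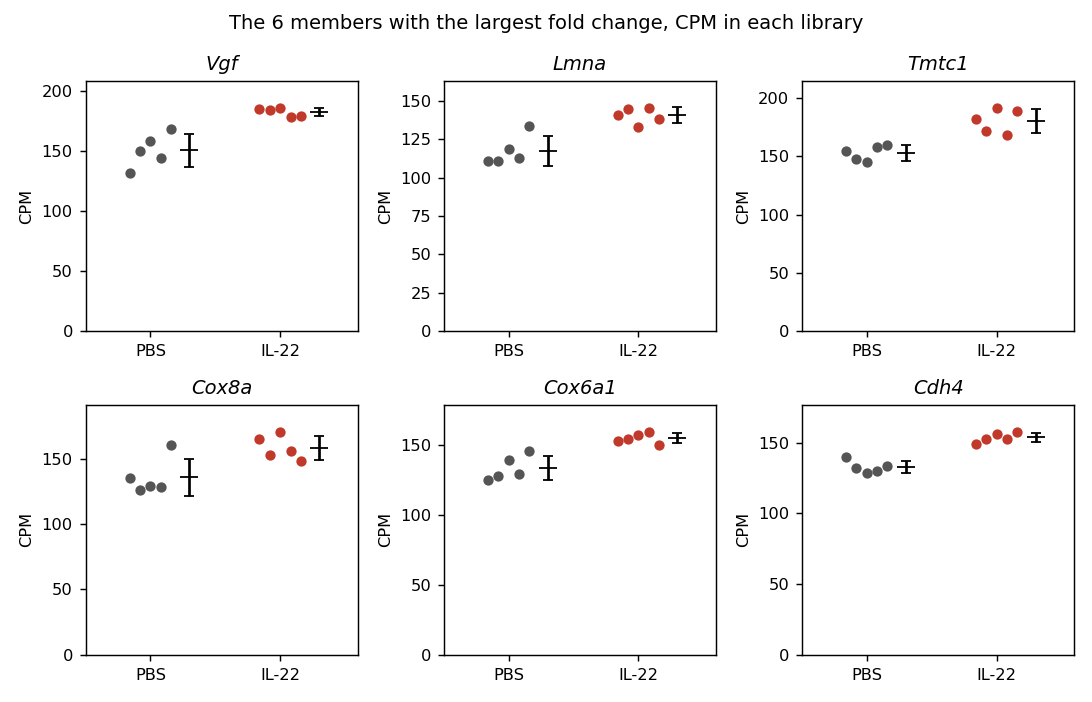
CPM (y axis, from 0) in each PBS (grey) and IL-22 (red) library for Vgf, Lmna, Tmtc1, Cox8a, Cox6a1 and Cdh4, the 6 genes with the largest log2 fold change by library totals (0.21 to 0.28), with mean and SD beside the points. Differences are small against the level, and for Lmna and Cox8a the highest PBS library reaches into the IL-22 range. All 6 stay positive under TMM factors, at 0.00 to 0.07.

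Wider lists of related genes hold few members each, because few of their genes are listed at all. The counts of higher genes below stand beside 81.3% of all listed genes called higher, and nothing is read from them. Of 4 listed genes of mitochondrial respiration (Cox5b, Cox8a, Cox6a1 and Uqcrq), all 4 were past the edgeR threshold as higher, with 2 among the 39 and a list median of 0.22 against 0.21 over all listed genes. The oxidative stress and iron list had 5 listed genes, all higher and 2 of them members (Fth1 and Actb, with Jun, Junb and Jund beside them). The study put these 5 under an oxidative stress heading from these same libraries, so the count is no independent evidence. The ubiquitin list had 5 listed genes, 4 higher, 3 of them members, and Fbxo3 lower. The cytoskeleton list had 4, with Pfn1, Actb and Map1s higher and Tmsb4x, a binder of actin monomers, lower. The membrane traffic list had 3, with Clta higher and Ctso and Atp6ap2 lower, and in the granule list of 3 Vgf was higher, Sytl4 lower, and Iapp not called. The chromatin and transcription list had 7, with 6 higher, Med25 among them, and 1 lower. None of the 7 listed genes of the STAT3 pathway list was a member, since Stat3 is left out by name and the others are under the minimum level. Of these 7, 6 were higher, with a list median of 0.48. The lists of RNA binding (3 higher of 3), chaperones (1 higher of 1) and ribosome (Rpl39 alone, lower) held no member, and no glycolysis gene was listed. Under TMM factors over the listed genes 18 genes of the whole table were called higher in place of 187, so these counts rest on the scaling by library total.

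The 39 genes varied more between PBS than between IL-22 libraries. The coefficient of variation (SD over mean) had a median of 4.48% in PBS and 2.92% with IL-22, the PBS value was the larger in 30 of 39 genes, and the median ratio was 1.54. Over all 230 listed genes the PBS value was the larger in 72.6%, with a median ratio of 1.5, and over the 18 abundant genes that were lower with IL-22 it was the larger in 6, with a median ratio of 0.71. The PBS spread was more than 2 times the counting error in 32 of the 39 genes. Genes share their libraries and are no replicates of each other, so no test of these shares is given.

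PBS 1 and PBS 5 marked the ends of this spread. PBS 5 was the highest PBS library for 23 of the 39 genes and PBS 1 the lowest for 19, and PBS 4 was the highest for none. PBS 5 over PBS 1 gave a median log2 ratio of 0.11 over the 39, from -0.14 to 0.37, beside a median of 0.15 for IL-22 over PBS. Of the 19 genes whose groups overlapped, 14 had PBS 5 as the highest PBS library. Without PBS 5, in a setting added after the data were seen, groups were apart in 34 of the 39, beside 72.6% of all listed genes, and the overlap remained for Sez6l, Rundc3a, Ivns1abp, Pde1c and Ywhah. Among the IL-22 libraries, library 1 was the lowest for 22 genes and library 4 the highest for 15.

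The library order went with the GC content of the transcripts. A slope of log2 CPM on GC content over all listed genes, as a difference from the mean of all 10 libraries per 10 percentage points of GC, was -0.16, -0.15, -0.03, -0.08 and 0.08 in PBS libraries 1 to 5. It was 0.04, 0.07, 0.07, 0.09 and 0.06 in IL-22 libraries 1 to 5. PBS 5 thus lay within the range of the IL-22 libraries, and the other 4 PBS libraries lay below it. Across the 39 genes the ratio of PBS 5 over PBS 1 correlated with GC content at Pearson's r = 0.58, and across all listed genes at 0.52, as a description over genes of the same 2 libraries. The transcripts of the 39 had a median GC content of 57.4% (range 42.9% to 64.1%), those of the 18 abundant genes lower with IL-22 had 44.1% (37.8% to 48.9%), and all listed genes had 56.8%. Within the 39, GC content and fold change had r = 0.23. Pde1c (42.9%), Ivns1abp (43.6%) and Tmtc1 (47.4%) were the 3 members inside the GC range of the abundant genes that were lower.

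**Figure D4:**
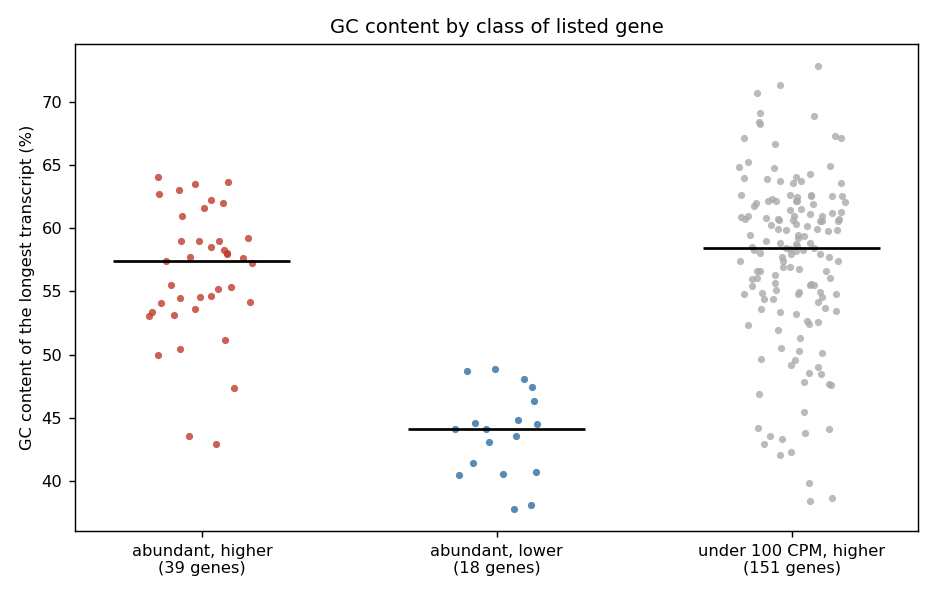
GC content of the longest annotated transcript (y axis, %) for the 39 abundant genes higher with IL-22, the 18 abundant genes lower with IL-22 and the 151 genes under 100 CPM that were higher, one point per gene, with the median as a line. Medians are 57.4%, 44.1% and 58.4%, and only 3 of the 39 fall within the range of the abundant lower genes. The classes were set by CPM over library totals.

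When the GC slope of each library entered the edgeR fit as a covariate, estimated from listed genes other than the gene's own randomly drawn part of the table, 14 of the 39 were past the threshold of 0.01 as higher, beside 32.2% of all listed genes. The median log2 fold change of the 39 was 0.11, and that of all listed genes 0.13. The 14 were Vgf, Lmna, Tmtc1, Cox8a, Cdh4, Dos, Nfasc, Chpf, Gde1, Scaf1, Slc37a1, Fth1, Ivns1abp and Pde1c. Of the group medians, that of the transcription and RNA group moved most, from 0.16 to 0.03, with Med25 at 0.02, Atn1 at 0.02 and Cic at 0.03, but Scaf1 at 0.11 and Pcbp1 at 0.15. The fold change was larger with the covariate for 9 of the 39, with transcripts of 42.9% to 55.5% GC, such as Ivns1abp at 0.14 and Pde1c at 0.15. The sizes of the decreases differed between genes. Vgf, the most GC-rich of the 39, went from 0.28 to 0.22, Cox6a1, at 62.7% GC, from 0.21 to 0.06, and Dlk1, at 53.6% GC, from 0.17 to 0.09. How closely the shifts follow GC content was not tested. In the signal transduction group the median was 0.12 without and 0.14 with the covariate. The covariate itself differed between groups, with slopes of -0.16 to 0.08 in PBS and 0.04 to 0.09 in IL-22 libraries. It was also estimated over genes listed for their difference between groups. This fit therefore cannot tell GC content and treatment apart, and the part of GC content in the differences was not tested.

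**Figure D5:**
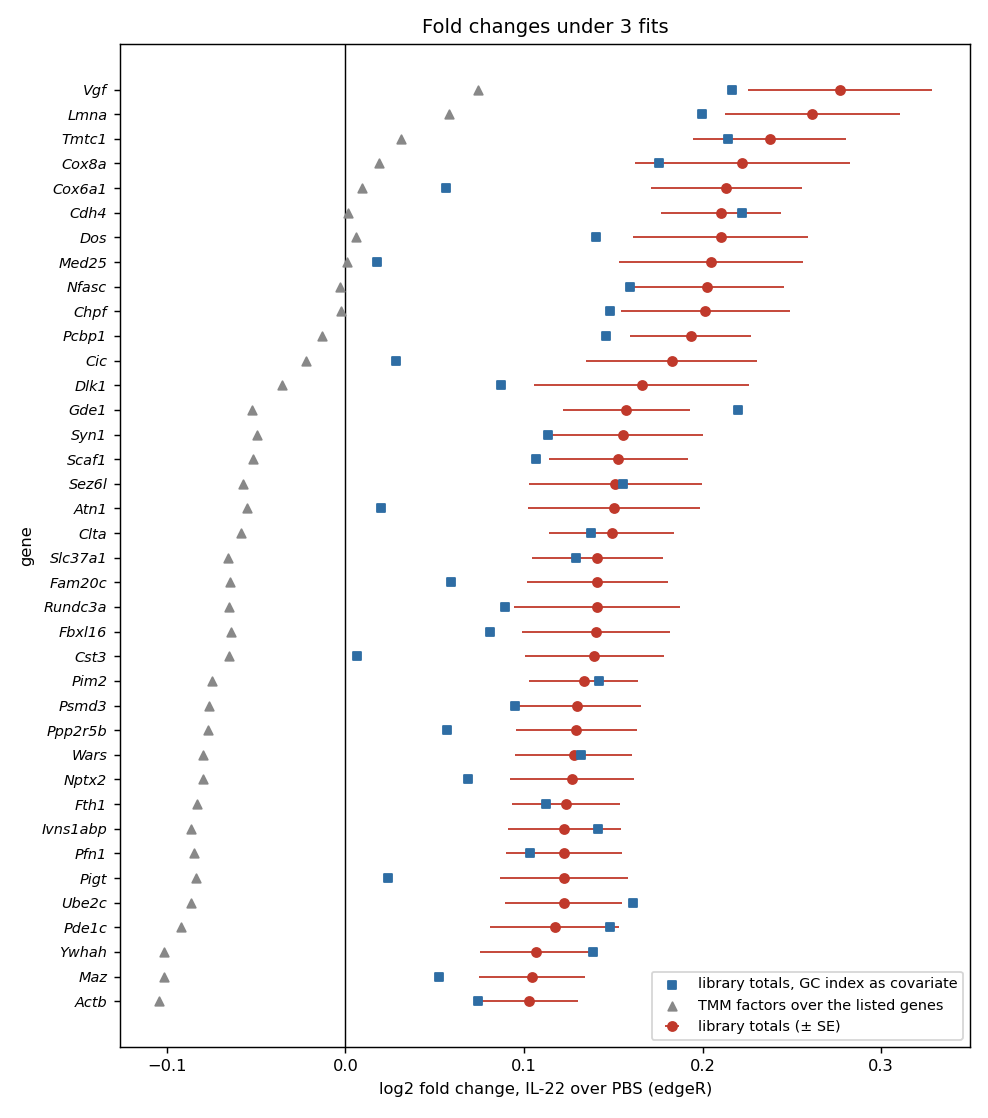
Log2 fold change, IL-22 against PBS (x axis), for 38 of the 39 genes (y axis, ordered by size) from 3 edgeR fits: library totals with SE bars (red circles), library totals with the GC slope as covariate (blue squares), and TMM factors over the listed genes (grey triangles). The genes plotted lie between 0.10 and 0.28 by library totals, reach 0.22 at most with the covariate, and lie between -0.10 and 0.07 with TMM factors.

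Some counts could include reads of a neighbour. The exons of 11 of the 39 genes share bases with another annotated gene. Atn1 shares 3874 bases with Gm45234 on the same strand, and 86.6% of its transcript is identical to that gene, so its count is uncertain. The others lie on opposite strands, with the widest overlaps between Slc37a1 and a processed pseudogene (964 bases) and between Ube2c and Tnnc2 (592 bases). The library kit keeps strand, but whether the counting used it is not given in the sources used here. Pigt has a pseudogene, Gm12929, that matches 370 bases of its transcript at 98.9% identity. The members lie on 13 chromosomes, 17 of them on the plus strand, and all 39 are protein-coding.

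The 18 abundant genes with the lower mean included Iapp, Ddc, Tmem27, Ids, Atp6ap2, Anp32e, Tmsb4x, Sytl4, Chic1, Tmem65, Slc16a12, Ndfip1, Nudt11, Stx12, Fbxo3, Impa1 and Rpl39. Their log2 fold changes were -0.19 to -0.07 by library totals and their median transcript length was 3511 bases against 2894. They and the 39 were split by the sign of the difference itself, so no test is set between them.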

How the data were processed

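The members and gene lists were chosen with earlier results of these data known, and the functional groups after the table was seen. RNA of 10 MIN6N8 libraries (stranded mRNA kit, reads of up to 100 bp) was sequenced and mapped to mm10 per the labels. The aligner and counting program are not given in the sources used here. The authors deposited counts, whole numbers of reads per gene and library without normalization. They also deposited CPM, which the authors made by dividing each count by the library total: this held for 100% of values within 0.0005. The authors' log2 fold change and mean log2 expression, their p-value and FDR, and a column of zeros for PBS are in the deposited table as well and were not used, apart from checking that 0 listed genes had an FDR of 0.05 or more.

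The total of each library was obtained by dividing count by CPM. All 230 genes had at least 1 CPM in 5 libraries. The quasi-likelihood test of edgeR 4.0.16 (R 4.3.3) was run on the counts of all 10 libraries with library totals as the only scaling, two-sided, with Benjamini-Hochberg adjustment over 230 genes and a threshold of 0.01. The common dispersion was 0.00413 and the prior df 7.73, estimated over listed genes only. On simulated counts for 230 genes, 189 of 200 genes changed by 0.3 (log2) were recovered with 0 false calls, and 0 were called with none changed. That change is larger than the fold change of any member by library totals (0.10 to 0.28). The counts were drawn independently at the common dispersion, without deviations shared by the genes of a library. The simulation therefore does not show how the test does for the members. Standard errors are the fold change over the root of the F statistic. Alternatives used TMM factors, DESeq2 1.42.0, limma 3.58.1 on log2(CPM + 1), no filter, a threshold of 0.05, other minimum levels, a library GC slope as covariate, the replicate number as a block, and each library left out. The block together with the GC slope, and groups without PBS 5, were added after the data were seen. GC content and positions came from the GENCODE annotation of GRCm38 (220 genes by symbol, 10 by an older one), and shared sequence from blastn 2.17.0 at 97% identity over 100 bases. Per-library CPM is given for the 6 members of largest and the 4 of smallest fold change, the 6 of highest PBS mean, and the highest in each functional group. Python 3.11.15 was used for the rest. Unlisted genes were not analysed here. For 1 of the 39 members, and for 1 other listed gene, values of their own are not reported here, while counts and medians cover all members.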

Additional observations from a re-analysis of the deposited data

Results flagged for a closer look

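In 4 of the 78 sets of 5 libraries (39 genes in each condition), 1 library lay far from the other 4 by Dixon's ratio (gap over range above 0.71). Chance alone flags about 1 in 20 such sets, which would be 3.9. Cox8a, the cytochrome c oxidase subunit, was at 160.1 CPM in PBS 5 against 126 to 135 CPM in the other PBS libraries. Pcbp1, the poly(rC)-binding protein, was at 372 CPM in IL-22 5 against 344 to 351 CPM in the other IL-22 libraries. Sez6l was at 408 CPM in IL-22 4 against 343 to 359 CPM. Actb was at 1141 CPM in PBS 1 against 1191 to 1203 CPM in the other PBS libraries.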

How the results depend on the processing

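With DESeq2 on library totals, limma on log2(CPM + 1), no filter or a threshold of 0.05, the 39 genes kept a positive fold change (no fold change was refitted for the threshold) and 38 or 39 of them stayed past the threshold. Beside this, 187 to 197 of all 230 listed genes were past the threshold as higher in these settings. With TMM factors over the listed genes, 18 genes of the table were called higher and 0 of the 39, 8 of the 39 were positive, and their median was -0.06. At an unadjusted p under 0.05, 0 of them were higher and 10 lower. With DESeq2's own size factors 30 genes of the table were called higher and 0 of the 39, 10 were positive, and the median was -0.05, with 1 higher and 10 lower at an unadjusted p under 0.05. These scalings centre the listed genes by construction. Under TMM factors the log2 fold changes that turned, of the members named, were Actb -0.105, Maz -0.102, Ywhah -0.102, Pde1c -0.092, Ube2c -0.086, Ivns1abp -0.086, Pfn1 -0.085, Pigt -0.083, Fth1 -0.083, Wars -0.080, Nptx2 -0.080, Ppp2r5b -0.077, Psmd3 -0.077, Pim2 -0.075, Slc37a1 -0.066, Rundc3a -0.065, Cst3 -0.065, Fam20c -0.064, Fbxl16 -0.064, Clta -0.058, Sez6l -0.057, Atn1 -0.055, Gde1 -0.052, Scaf1 -0.052, Syn1 -0.050, Dlk1 -0.036, Cic -0.022, Pcbp1 -0.013, Nfasc -0.0030 and Chpf -0.0025. Under DESeq2's own factors they were Actb -0.094, Maz -0.091, Ywhah -0.091, Pde1c -0.082, Ube2c -0.076, Ivns1abp -0.076, Pfn1 -0.074, Pigt -0.073, Fth1 -0.073, Wars -0.069, Nptx2 -0.069, Psmd3 -0.066, Ppp2r5b -0.066, Pim2 -0.064, Slc37a1 -0.055, Rundc3a -0.055, Cst3 -0.054, Fam20c -0.054, Fbxl16 -0.054, Clta -0.048, Sez6l -0.047, Atn1 -0.045, Gde1 -0.042, Scaf1 -0.042, Syn1 -0.039, Dlk1 -0.025, Cic -0.012 and Pcbp1 -0.0022. With the GC slope as covariate 74 genes were called higher and 8 lower, 14 of the 39 among the former. The replicate number as a block gave 193 higher and 32 lower, with 39 of the 39 called. Same-numbered libraries correlated in their deviations at 0.30, 0.29, 0.32, -0.17 and -0.32, so the numbers were not taken to pair the libraries, and not every library correlated best with its own number. The block with the GC slope gave 52 higher and 5 lower, 12 of the 39, and Cst3 at -0.0087 and Maz at -0.0033. A minimum of 50 CPM would give 81 members and 200 CPM 9, and rescaling CPM to a common median over the listed genes 14, all of which are among the 39. Leaving out each library in turn gave 127 to 196 genes higher, 15 to 32 lower, 25 to 39 of the 39 called (25 without IL-22 library 2), 39 positive in each of the 10 fits, a median of 0.13 to 0.17, 39 members, and a ratio of PBS to IL-22 variation of 1.30 to 1.77. Of the 39, 21 were called in all 10 of these fits and 18 were lost in at least 1. The share of all listed genes called in every one of these fits is not given here, so nothing is read from this count. The cause of these shifts was not tested. Counting error limits a member's level to 0.53% to 1.82%, at 2412 or more reads per gene and library.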
